A study of Mus musculus with 11 samples.

Results

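Hemoglobin genes and the genes of red cell development were followed in main olfactory epithelium (MOE), taken whole from mice labelled as newborn, as a readout of blood content and of the stage of the red cells in the tissue. The 9 genes are the adult alpha-globins Hba-a1 and Hba-a2, the adult beta-globins Hbb-bs and Hbb-bt, the embryonic globins Hba-x, Hbb-y and Hbb-bh1, the erythroid heme enzyme gene Alas2 and the red cell anion exchanger gene Slc4a1. They were taken by symbol, and all 9 were found among the 24421 rows of the count table. The 4 adult globin genes were listed at 0 in all 11 libraries, and the other 5 genes had at least 1 count.

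RNA-seq libraries were made from the MOE of wild type (3 libraries), heterozygous (4) and homozygous mice (4), which the labels give as C57BL/6 of postnatal day 1 to 2. Heterozygous and homozygous mice carried 1 or both copies of a deletion of the olfactory Taar cluster, the trace amine receptor genes that olfactory neurons use (Taar2 through Taar9), which also removes TAAR enhancer 2 and leaves TAAR enhancer 1 in place. The study's reporting form instead gives mixed backgrounds and, for the Taar2-9 cluster knockout line, a later postnatal age with males and females used, so the stage of these libraries is that of the labels and is in doubt. The labels give no sex, litter or day for a library. Nothing in the sources used here says whether each library was 1 animal, so p-values measure the spread between these libraries.

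Hemoglobin is built from 2 alpha-type and 2 beta-type chains, each holding a heme. In the mouse, the first red cells of the yolk sac use Hba-x, Hbb-y and Hbb-bh1, and the red cells made later in the fetal liver and then the bone marrow use the adult genes. Heme in red cell precursors starts with Alas2, while other cells use Alas1, and mature red cells keep globin RNA only for a short time after they lose the nucleus. Around birth much of the circulating blood still comes from young red cells, so globin RNA of a dissected tissue is commonly read as blood.

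The libraries held 9239866 to 14632525 counts each. Omp, the marker of mature olfactory neurons, was at 346 to 736 counts per 1000000 (CPM) in every library. The 14 olfactory Taar genes summed to 87 to 119 counts in the wild type libraries, 31 to 96 in the heterozygous and 1 to 3 in the homozygous ones. On the first principal component over all tested genes outside the erythroid lists, which carried 40.3% of the variance, the libraries fell into a set of 6 (wild type replicates 1 and 2, heterozygous 3 and 4, homozygous 1 and 2) and a set of 5 (wild type 3, heterozygous 1 and 2, homozygous 3 and 4), and both sets hold every genotype. In homozygous replicate 2 the ribosomal RNA precursor Rn45s took 25.8% of all counts, against 0.0848% to 0.786% elsewhere.

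The coding sequences of the adult pairs are printed because they show how little separates the rows that were at 0. The windows below hold the only coding base at which each adult pair differs, in capitals, and are 5′ to 3′ on the coding strand from GENCODE transcripts of GRCm38 (mm10), counted from 1 at the start codon, the alpha window covering coding bases 352 to 411 and the beta window 382 to 441.
Hba-a1: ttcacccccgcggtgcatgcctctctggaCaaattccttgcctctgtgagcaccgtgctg
Hba-a2: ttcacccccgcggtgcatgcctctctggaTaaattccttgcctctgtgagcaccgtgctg
Hbb-bs: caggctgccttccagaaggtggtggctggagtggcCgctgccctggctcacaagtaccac
Hbb-bt: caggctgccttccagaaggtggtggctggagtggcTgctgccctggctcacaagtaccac
Hba-a1 and Hba-a2 differed at 1 of 426 coding bases, position 381, and shared a run of 380 identical bases. Hbb-bs and Hbb-bt differed at 1 of 441, position 417, and shared a run of 416.

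The embryonic genes are far from the adult ones, as the first 60 coding bases show. Capitals mark bases that differ from Hbb-bs in Hbb-y and Hbb-bh1, and from Hba-a1 in Hba-x.
Hbb-bs: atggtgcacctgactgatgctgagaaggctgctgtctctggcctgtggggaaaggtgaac
Hbb-y: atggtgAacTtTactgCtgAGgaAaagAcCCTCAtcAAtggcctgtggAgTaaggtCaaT
Hbb-bh1: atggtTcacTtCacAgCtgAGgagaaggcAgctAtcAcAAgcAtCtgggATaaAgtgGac
Hba-a1: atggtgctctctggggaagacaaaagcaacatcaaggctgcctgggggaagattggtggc
Hba-x: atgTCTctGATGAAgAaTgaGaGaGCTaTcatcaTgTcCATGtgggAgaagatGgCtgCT
Over the whole coding sequence Hbb-y was 74.38% and Hbb-bh1 73.92% identical to Hbb-bs, and Hba-x was 61.74% identical to Hba-a1. The longest run that Hbb-bs shared with either embryonic beta gene at the same positions was 22 bases.

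By position in mm10, Hba-x (chr11:32276400-32278116), Hba-a1 (chr11:32283511-32284465) and Hba-a2 (chr11:32296489-32297298) stand in this order on the plus strand. The beta genes lie on the minus strand, in the order Hbb-bt (chr7:103812524-103813996), Hbb-bs (chr7:103826534-103828096), Hbb-bh1 (chr7:103841637-103843164) and Hbb-y (chr7:103851749-103853216). Alas2 is X-linked (chrX:150547375-150570638, plus strand), and Slc4a1 (chr11:102348824-102366203, minus strand) lies on the same chromosome as the alpha genes. Each interval is the whole gene, exons and introns included.

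The adult globins gave no counts. Hba-a1, which encodes an adult alpha chain, was listed at 0 in all 3 wild type, 4 heterozygous and 4 homozygous libraries. Hba-a2, the other adult alpha gene, was listed at 0 in the same 11 libraries. Hbb-bs and Hbb-bt, which encode the adult beta chains of the haplotype in the reference genome, were also listed at 0 throughout, as were Hbb-b1 and Hbb-b2, the rows for the genes of the other beta haplotype. With 129124525 counts over the 11 libraries, a count of 0 allows up to 0.0232 counts per 1000000 total counts for a row, taking 3 counts as the limit (0.0286 by the exact Poisson 95% interval), and both cover counting error only.

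These zeros do not show that the RNA was absent. Genes that every cell uses and that have near copies were at 0 as well, among them Eif3j1 and Eif3j2 of the translation initiation machinery, Amd1 and Amd2 of polyamine synthesis, and Srp54b and Srp54c of the signal recognition particle, chosen after their values were seen. Gapdh, the glycolytic enzyme gene with many processed copies, held 33 to 154 counts per library, while Actb held 11490 to 21083. Other genes that share transcript stretches with further genes did have counts. Over all libraries these were 670 for Srp54a, 58697 for Ftl1 and 414504 for Eef1a1, also chosen after their values were seen. How the authors treated reads that map to several places is not given in the sources used here. The adult hemoglobin level, the alpha to beta balance and the share of each adult gene were therefore not measurable from these counts.

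The rows at 0 were set against the uniqueness of their transcripts, as the share of 50-base stretches of a gene's GENCODE transcripts that no other gene holds. This share was 27.7% for Hba-a1, 10.7% for Hba-a2, 46.8% for Hbb-bs and 41.7% for Hbb-bt. It was 100% for each of Hba-x, Hbb-y, Hbb-bh1, Alas2 and Slc4a1, the members with counts. Over all rows matched to the annotation, 38.1% of the 645 genes with a share of 10 to 50% were at 0 in every library, against 7.74% of the 19978 genes with 90% or more and 69.9% of the 661 genes under 10%. With stretches of 100 bases the shares of the adult genes were 36.7%, 20.5%, 50.3% and 45.2%. So each adult gene held some unique sequence and still had no count, and most genes of a like share did have counts; the part of read assignment in the zeros was not tested.

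**Figure D1:**
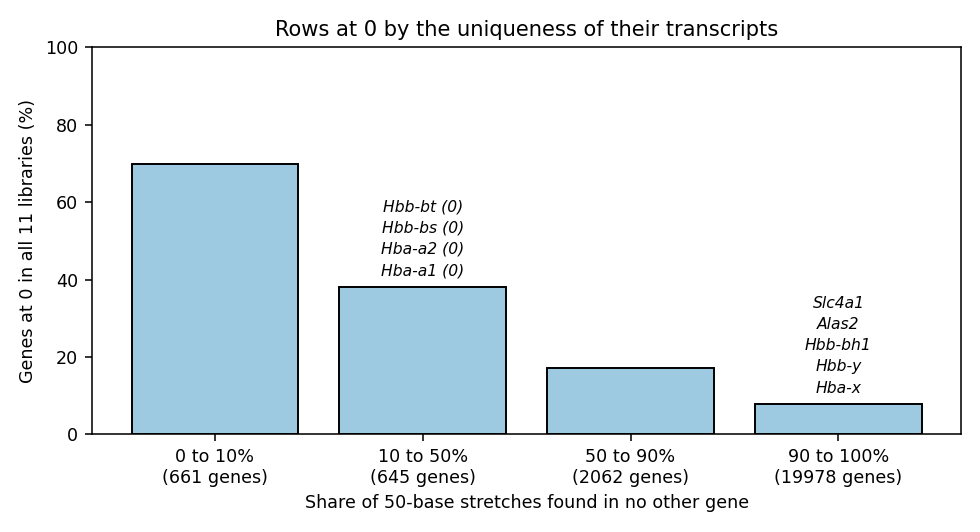
Bars give the percent of genes at 0 in all 11 libraries (y axis) by the share of 50-base stretches of their transcripts found in no other gene (x axis), with the 9 genes named over their class and those at 0 marked. The 4 adult globins sit in the 10 to 50% class, where 38.1% of genes were at 0, and the 5 others in the 90 to 100% class, where 7.74% were.

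The embryonic globins were close to nothing in every genotype. Hba-x, the embryonic alpha-type chain, held 1, 0 and 5 counts in the wild type libraries, 4, 2, 1 and 2 in the heterozygous and 1, 1, 2 and 0 in the homozygous. The genotypes overlapped, and 9 of 11 libraries had at least 1 count. Summed over libraries and taken over total counts without scaling, this was 19 counts or 0.147 CPM (exact Poisson 95% interval 0.0886 to 0.230), with 0.174 CPM (0.0637 to 0.378) in the wild type, 0.195 (0.0891 to 0.370) in the heterozygous and 0.0827 (0.0225 to 0.212) in the homozygous libraries. These intervals overlap and cover counting error only.

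Hbb-bh1, an embryonic beta-type chain of the earliest red cells, held 0, 0 and 1 counts in the wild type, 2, 2, 0 and 0 in the heterozygous and 1, 0, 0 and 1 in the homozygous libraries. Its 7 counts came to 0.0542 CPM (0.0218 to 0.112). Hbb-y, the other embryonic beta-type chain, held 0, 2 and 1 counts in the wild type, 1, 0, 0 and 0 in the heterozygous and 1, 0, 1 and 0 in the homozygous libraries. Its 6 counts came to 0.0465 CPM (0.0171 to 0.101). Each of these genes was seen in 5 of 11 libraries, none had more than 2 counts in a library, and a difference between genotypes was not detectable at this depth.

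All 3 embryonic genes fell below the filter on low counts and were not tested. Unlike the adult genes, they share no stretch of 50 bases with another gene. The related globin genes fixed in the same list were similar. Hbb-bh2, a further beta-type gene, had 2 counts in all, and Hbq1a and Hbq1b, the theta-type alpha genes, had 5 each. Of the globins outside red cells, Cygb, the cytoglobin of fibroblast-like cells, was at 57.9 ± 9.45 CPM (SD, n = 11), Mb, the myoglobin of muscle, at 4.42 ± 2.92, and Ngb, the neuroglobin of neurons, at 0.396 ± 0.33.

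**Figure D2:**
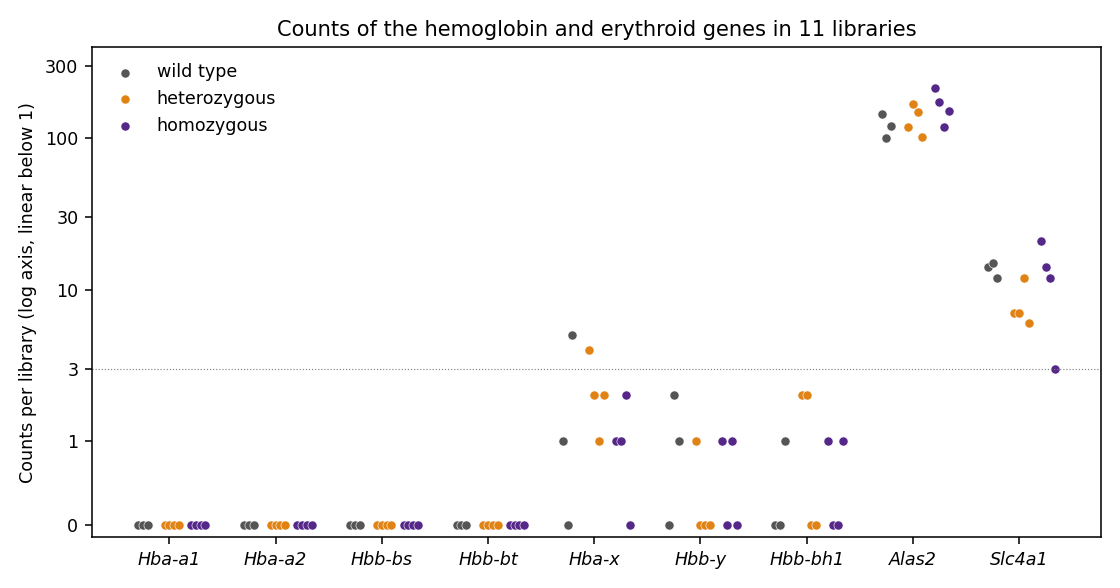
Each point is the count of 1 gene (x axis) in 1 library (y axis, log scale from 1 up and linear below), coloured by genotype, with a dotted line at 3 counts. The 4 adult globins are at 0 in all 11 libraries, the 3 embryonic globins do not exceed 5, Slc4a1 lies between 3 and 21 and Alas2 between 101 and 217.

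Alas2, which makes the first enzyme of heme synthesis in red cell precursors, was the only one of the 9 genes above a mean of 1 CPM. It was at 13.5, 8.09 and 9.68 CPM in the wild type libraries, 8.08, 13.2, 14.1 and 10.9 CPM in the heterozygous, and 18.2, 19.1, 8.72 and 13.0 CPM in the homozygous ones. The 2 highest libraries were homozygous replicates 1 and 2, the other homozygous libraries lay inside the range of the other genotypes, and all genotypes overlapped. The means were 10.4 ± 2.79 CPM (SD, n = 3) in the wild type, 11.6 ± 2.68 (n = 4) in the heterozygous and 14.8 ± 4.84 (n = 4) in the homozygous libraries.

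The difference in Alas2 did not pass the test in any comparison. By edgeR's quasi-likelihood test with Benjamini-Hochberg adjustment over 16574 tested genes, the log2 fold change was 0.50 (SE 0.301, 95% interval -0.158 to 1.16, unadjusted p = 0.124, adjusted p = 0.996) in homozygous against wild type. It was 0.15 (SE 0.30, interval -0.505 to 0.804, adjusted p = 1) in heterozygous against wild type and 0.35 (SE 0.276, interval -0.253 to 0.952, adjusted p = 1) in homozygous against heterozygous. The upper bound of the first interval is a rise of 1.16 on the log2 scale, so a change of that size is not excluded by these libraries. Without homozygous replicate 3 the log2 fold change in homozygous against wild type was 0.68 with an unadjusted p of 0.0308 and an adjusted p of 1.

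Alas2 was also read within the library sets, whose ranges overlapped (8.09 to 19.1 CPM in the set of 6 and 8.08 to 13.2 CPM in the set of 5). Within the set of 6 the wild type libraries had a mean of 10.8 CPM, the heterozygous 12.5 and the homozygous 18.7, with 2 libraries each. Of these homozygous libraries 1 is replicate 2, where Rn45s took 25.8% of all counts. How many other genes had this order within the set was not counted. Within the set of 5 the means were 9.68 (1 library), 10.6 (2 libraries) and 10.9 CPM (2 libraries), and the genotypes overlapped. With this set as a covariate, an alternative chosen after seeing the data, the log2 fold change in homozygous against wild type was 0.53 (unadjusted p = 0.0532, adjusted p = 0.705).

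Because Alas2 lies on the X chromosome, it was also set beside Xist, the RNA of the inactive X. Xist was at 1326 to 4293 CPM in the 3 wild type libraries, heterozygous replicate 3 and homozygous replicate 1, and at 0.88 to 1.7 CPM in the other 6. Alas2 was at 12.7 ± 3.99 CPM (n = 5) in the libraries with Xist and at 12.2 ± 3.99 (n = 6) in those without. With the Xist class as a covariate, also chosen after seeing the data, the log2 fold change of Alas2 in homozygous against wild type was 0.80 (unadjusted p = 0.0486, adjusted p = 1). No wild type library was without Xist, so within the libraries without it the wild type could not be compared.

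Slc4a1, the band 3 anion exchanger that anchors the red cell membrane to its skeleton, had a mean level of 0.199 CPM per kilobase of exon, against 5.17 for Alas2.
It was at 1.3, 1.2 and 0.968 CPM in the wild type libraries, 0.475, 0.549, 1.14 and 0.642 CPM in the heterozygous, and 1.77, 1.53, 0.88 and 0.258 CPM in the homozygous ones. These values rest on 3 to 21 counts a library, and the homozygous libraries held both the highest and the lowest value. The means were 1.16 ± 0.169 CPM (SD, n = 3) in the wild type, 0.701 ± 0.298 (n = 4) in the heterozygous and 1.11 ± 0.678 (n = 4) in the homozygous libraries.

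No difference in Slc4a1 passed the test. The log2 fold change was -0.071 (SE 0.519, 95% interval -1.2 to 1.06, adjusted p = 0.997) in homozygous against wild type by edgeR's quasi-likelihood test. It was -0.73 (SE 0.536, interval -1.9 to 0.439, adjusted p = 1) in heterozygous against wild type and 0.66 (SE 0.506, interval -0.443 to 1.76, adjusted p = 1) in homozygous against heterozygous. The second value was -0.46 under the replicate block and -0.028 with the Xist class as a covariate. The third was 0.33 without homozygous replicate 1 and 0.99 without homozygous replicate 4, where the unadjusted p was 0.0313 and the adjusted p 1. Slc4a1 averaged 1.26 ± 0.382 CPM in the set of 6 and 0.626 ± 0.294 CPM in the set of 5, with overlapping ranges. It averaged 1.27 ± 0.3 CPM in the libraries with Xist and 0.721 ± 0.443 in those without, and with the Xist class as a covariate its log2 fold change in homozygous against wild type was 0.62 (adjusted p = 1).

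**Figure D3:**
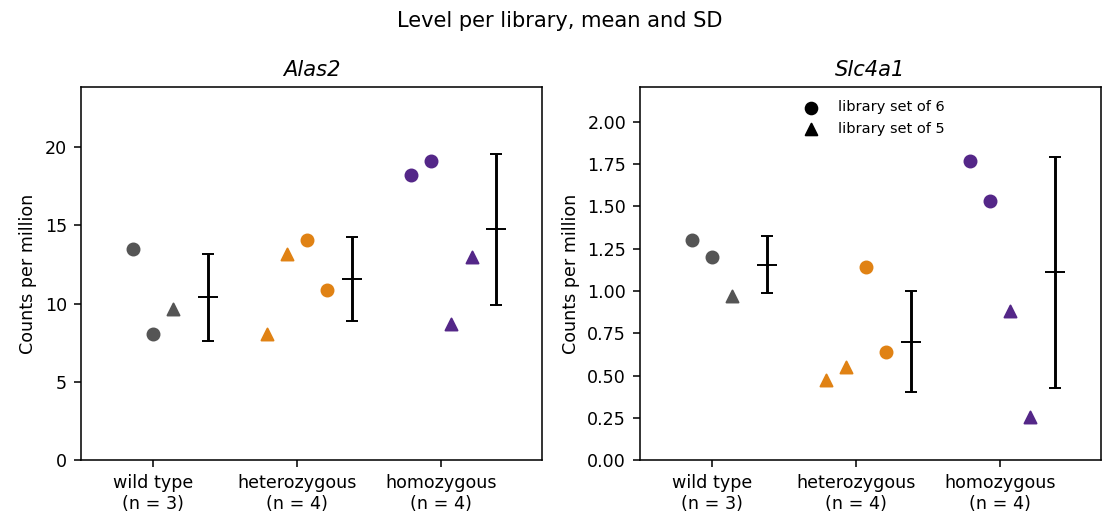
Points are the level of Alas2 (left) and Slc4a1 (right) in CPM for each library by genotype, circles for the library set of 6 and triangles for the set of 5, and the bars give mean and SD. All genotypes overlap for both genes, and the 2 highest Alas2 values, 18.2 and 19.1 CPM, are homozygous libraries of the set of 6.

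The highest library was 2.36 times the lowest for Alas2 and 6.84 times for Slc4a1, while the median over all tested genes was 1.96. A larger ratio was found in 34.2% of tested genes for Alas2 and in 5.42% for Slc4a1.

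In homozygous against wild type, 0 of the 9 genes were called at an adjusted p under 0.05, where 2 of them had passed the filter and 0 of all 16574 tested genes (0%) were called. The deleted olfactory Taar genes, which summed to 87 to 119 counts in the wild type and 1 to 3 in the homozygous libraries, were thus not called either. A count of 0 calls therefore does not show that no gene changed. At an unadjusted p under 0.05, 500 genes (3.02%) passed and none of the 2 tested members did. With wild type and homozygous libraries of the same number paired as a block, 31 of 15968 genes were called, and neither Alas2 (adjusted p = 0.839) nor Slc4a1 (adjusted p = 0.958) was among them. The labels do not say that equal numbers are pairs, and 0 of 11 libraries correlated most with one of the same number. By edgeR the corresponding shares of all genes were 0% adjusted and 2.24% unadjusted (372 genes) in heterozygous against wild type, and 0% and 0.561% (93 genes) in homozygous against heterozygous, with 0 members in each. These unadjusted counts depended on the fit and on single libraries. With the library set over all genes as a covariate they were 1132, 754 and 227, in the order of the comparisons above. Under the replicate block over all libraries they were 286, 239 and 43. For homozygous against wild type, the count with 1 library omitted lay between 317 (homozygous replicate 2 omitted) and 721. The heterozygous comparison with controls gave 229 genes once wild type replicate 1 was omitted and 614 once its replicate 3 was. For homozygous against heterozygous the count was 53 with homozygous replicate 2 omitted, 177 with homozygous replicate 1 omitted and 180 with heterozygous replicate 1 omitted. DESeq2 called 8, 3 and 2 genes in the 3 comparisons, none of them a member.

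Erythroid over general heme synthesis was read from the share of Alas2 in the counts of Alas1 plus Alas2, a measure added after the adult globins were found at 0. Alas1, the enzyme gene used outside red cells, was at 105 to 151 CPM, so Alas2 was the minor part everywhere. The share was 8.22%, 6.7% and 7.51% in the wild type libraries, 6.62%, 9.84%, 11.8% and 7.43% in the heterozygous, and 14.1%, 13.5%, 7.1% and 8.16% in the homozygous ones. The Wilson 95% intervals of homozygous replicates 1 (12.5 to 16%) and 2 (11.7 to 15.4%) lay above those of all wild type libraries (5.55 to 9.58%), as did that of heterozygous replicate 3 (10.1 to 13.7%), and those of homozygous replicates 3 and 4 overlapped them. These intervals cover counting error only.

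Between genotypes the share averaged 10.7% ± 3.6 (SD, n = 4) in homozygous, 8.92% ± 2.35 (n = 4) in heterozygous and 7.48% ± 0.758 (n = 3) in wild type libraries. A two-sided exact permutation test gave p = 0.286 for homozygous against wild type (difference 3.24 percentage points), p = 0.514 for heterozygous against wild type (1.45 points) and p = 0.429 for homozygous against heterozygous (1.79 points), each 0.514 after Benjamini-Hochberg adjustment over the 3. Leaving out 1 library moved the differences to 2.1 (without homozygous replicate 1) to 4.45 points (without homozygous replicate 3) in homozygous against wild type. In heterozygous against wild type they went from 0.489 (without heterozygous replicate 3) to 2.21 (without heterozygous replicate 1). Between homozygous and heterozygous libraries they went from 0.653 (without homozygous replicate 1) to 3 (without homozygous replicate 3). With 3 libraries against 4 the smallest p this test can give is 0.0571, and with 4 against 4 it is 0.0286.

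The other enzymes of heme synthesis had counts in every library. Of the 9 genes of the pathway, all were tested and 0 were called in any comparison. In homozygous libraries 6 were higher and 3 lower than in the wild type, with a median log2 fold change of 0.037, against 0.0155 over all tested genes. After Alas1 (123 CPM on average), the highest were Ppox, the protoporphyrinogen oxidase (83.1), Urod, the uroporphyrinogen decarboxylase (69.4), and Fech, which inserts the iron (68.2). In homozygous against wild type the log2 fold change was 0.021 (SE 0.111) for Fech and 0.14 (SE 0.121) for Urod, and neither passed. Ppox averaged 56.5 CPM in the set of 6 and 115 in the set of 5 with no overlap, as did not overlap 26.9% of all tested genes.

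The genes of the red cell membrane spanned a wide range of levels. Of 15 genes, 10 were tested and 0 called after adjustment, with median log2 fold changes of -0.0034 in homozygous and -0.038 in heterozygous libraries against the wild type. The highest were Epb41, the protein 4.1 gene (287 CPM, under its older symbol in the table), Add2, a beta-adducin gene (119), Dmtn, the dematin gene (73.2), and Tmod1, a tropomodulin (22.4). Of the surface genes, Gypc averaged 17.1 CPM and Ermap 2.11 CPM, while over all libraries there were 63 counts for Rhd, 9 for Rhag, the Rh-associated glycoprotein, 23 for Epb42 and 7 for Kel.

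Ank1, the ankyrin that ties band 3 to spectrin and is also used in other tissues, was the only gene of these lists with an unadjusted p under 0.05. It passed in heterozygous against wild type, where 372 of all 16574 tested genes (2.24%) did. Its log2 fold change in heterozygous against wild type was 0.74 (SE 0.293, unadjusted p = 0.0271, adjusted p = 1), at 8.34 CPM on average. It was 0.45 (SE 0.292) in homozygous against wild type. Its partner Sptb, a spectrin gene, had a log2 fold change of 0.33 (SE 0.236) in heterozygous against wild type and did not pass. In the same comparison all 7 skeletal muscle genes were higher, with a median log2 fold change of 4.58. The part of muscle in Ank1 and Sptb was not tested.

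Of the other erythroid genes, 16 of 17 were in the table, 12 were tested and 0 were called. Tfrc, the transferrin receptor that brings iron into dividing cells, was at 109 CPM on average, Mkrn1 at 101, Fam210b at 93.8 and Bnip3l, needed to clear mitochondria from maturing red cells, at 83.2. Others had few counts, with 8 in all for Hemgn, 7 for the carbonic anhydrase Car1, 36 for Trim10 and 26 for Trim58. Bpgm, which makes the metabolite that lowers the oxygen affinity of hemoglobin, was steady at 69 to 84.2 CPM.

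Of 10 genes of the transcription factor list, 8 were tested and 0 called, 6 being higher and 2 lower in the homozygous libraries than in the wild type. Bcl11a, the repressor of embryonic globins that neurons also express, led at 73.5 CPM, followed by Lmo2 (39.9), Myb (37.7) and Sox6 (26.7). Gata1, the master regulator of red cells, had 5 counts over all libraries, found in only 4 of them. Gfi1b had 47 counts and Nfe2 150. Zfpm1, a partner of Gata1, averaged 25.9 CPM, Tal1 2.94 CPM, and Klf1, the activator of the adult beta-globins, 1.41 CPM. Genes named from these lists that are neither among the 4 highest of a list nor under an unadjusted p of 0.05 were chosen after their values were seen.

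Genes of heme and iron handling held the highest levels among the 6 erythroid and heme lists. The ferritin chains Fth1 and Ftl1 averaged 801 and 450 CPM, Hmox1, which breaks heme down, 48.7, and the iron exporter gene Slc40a1 22.6. Of 8 genes 7 were tested and 0 called, and the lowest unadjusted p among all 48 tested genes of the 6 lists in homozygous against wild type was 0.0701, that of Ftl1 (log2 fold change 0.36, SE 0.181). Hp, the haptoglobin that binds free hemoglobin, lay at 15 to 28.9 CPM, and Cd163, its receptor on macrophages, at 2.78 to 6.56.

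**Figure D4:**
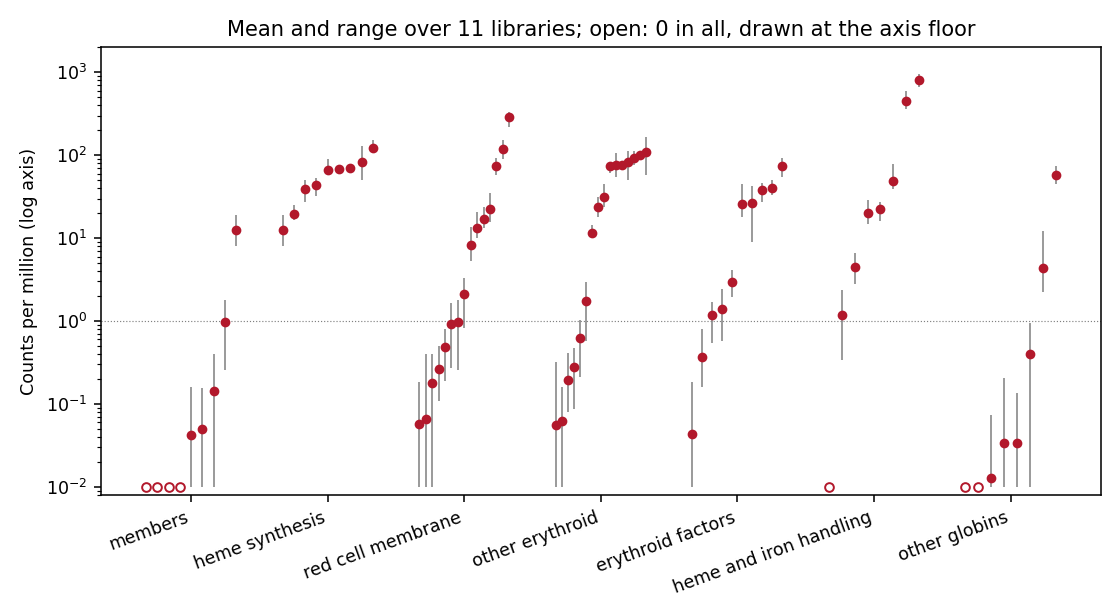
Each point is the mean level of 1 gene over 11 libraries in CPM (log axis), with a line from its lowest to its highest library, by gene list, and open circles at the axis floor mark genes at 0 throughout. The means of the heme synthesis genes all lie above 10 CPM, while the 9 hemoglobin and erythroid genes reach down to 0.

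Over the 6 lists together, 48 genes were tested. In homozygous against wild type 28 were higher and 20 lower, with values from -0.46 to 0.53 on the log2 scale, and 0 passed an unadjusted p of 0.05. In heterozygous against wild type 24 were higher and 24 lower, and 1 passed. In homozygous against heterozygous 31 were higher and 17 lower, and 0 passed. The shares over all tested genes at this threshold were 3.02%, 2.24% and 0.561%, in the same order. Each pair of comparisons shares the libraries of 1 genotype, so these counts are not independent.

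**Figure D5:**
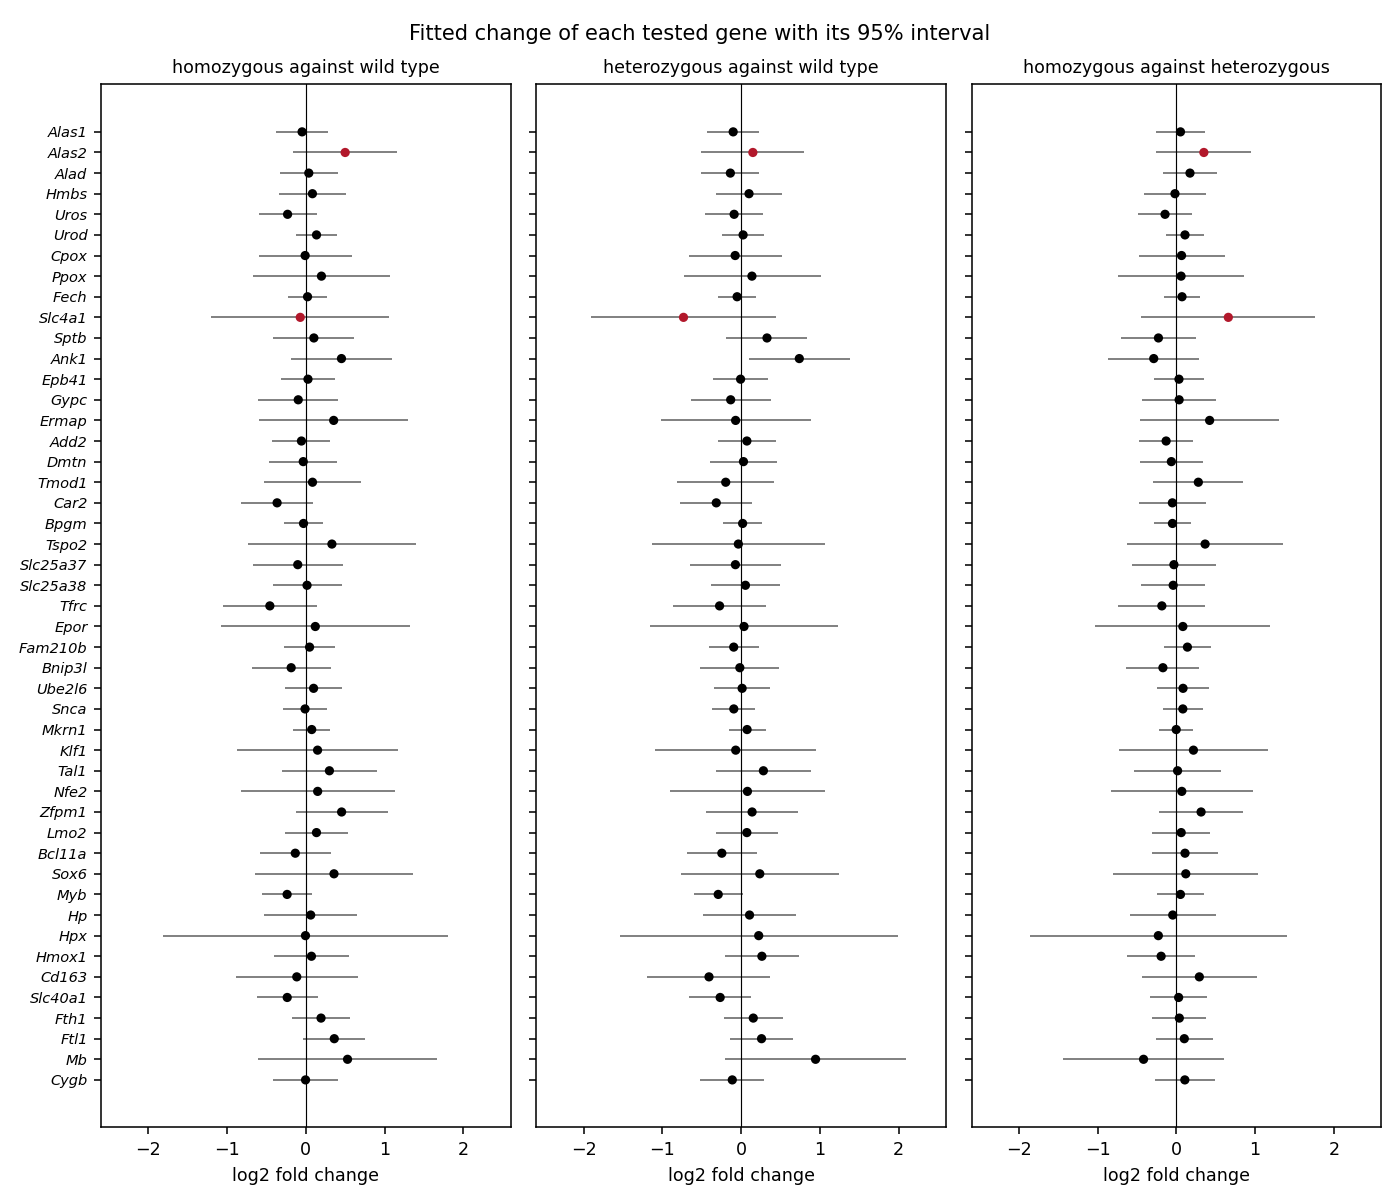
Points are the fitted log2 fold changes (x axis) of 47 of the 48 tested genes (rows) in the 3 comparisons (panels), lines their 95% intervals, with Alas2 and Slc4a1 in red. The interval of Ank1 in heterozygous against wild type, 0.0994 to 1.38, is the only one shown that leaves out 0.

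The library sets separated these genes no more often than all tested genes. Of the 48 tested genes, 11 (22.9%) had no overlap between the set of 6 and the set of 5, 8 of them higher in the set of 5. Over all tested genes 4460 (26.9%) had none, 2657 of them higher in the set of 5. Hpx, the hemopexin that binds free heme, averaged 0.432 CPM in the set of 6 and 2.06 in the set of 5, and Epor, the erythropoietin receptor, 1.07 and 2.54. Slc25a37, the mitochondrial iron carrier mitoferrin, averaged 61.1 and 94.6 CPM, Sox6 17.8 and 37.3, and Cpox, a heme enzyme gene, 46.6 and 29.3. The direction thus differed between genes of the same pathway, and neither Alas2 nor Slc4a1 was among the 11. These genes were named after their values were seen.

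Markers of other blood and vessel cells gave the following levels beside the erythroid genes, and their part in the Alas2 values was not tested beyond the relations below. The 8 neutrophil genes summed to 144 to 670 CPM in the wild type, 193 to 599 in the heterozygous and 158 to 377 in the homozygous libraries, most of it Ltf, which glands also express (log2 fold change -0.83, SE 0.607, in homozygous against wild type). Of the 7 tested, 6 were higher in homozygous than in the wild type, with a median log2 fold change of 0.469 against 0.0155 over all tested genes, and S100a9 (0.93, SE 0.378) had an unadjusted p of 0.0301 and an adjusted p of 0.996 by edgeR. Their bone marrow genes were low, Mpo averaging 0.864 CPM and Elane 0.106. The 6 platelet genes summed to 37.7 to 62.6, 38.8 to 62 and 42.9 to 73.3 CPM, with Pf4 at 10.5, Ppbp at 0.282 and Gp6 listed at 0. The 7 endothelial genes summed to 238 to 388, 224 to 374 and 274 to 407 CPM, the 6 lymphocyte genes to 3.33 to 4.36, 3.61 to 4.75 and 3.66 to 5.59 CPM. The 6 macrophage genes summed to 168 to 184 CPM in the wild type, 182 to 242 in the heterozygous and 209 to 241 in the homozygous libraries, and all 6 were higher in both against the wild type. In homozygous against wild type C1qb (log2 fold change 0.49, SE 0.166) and C1qc (0.50, SE 0.143) were under 0.05 by edgeR before adjustment. In heterozygous against wild type 3 were (C1qb, C1qc and Cd68). The shares over all genes at this threshold were 3.02% and 2.24%, which moved with single libraries as given above, and 0 passed after adjustment (adjusted p = 0.996 and 1 by edgeR). In bulk tissue, fewer cells of a type and less RNA per cell cannot be told apart.

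The 7 skeletal muscle genes summed to 5.65 to 52.1 CPM in the wild type, 14.5 to 1570 in the heterozygous and 17.1 to 739 in the homozygous libraries. Mb, the muscle globin, had a log2 fold change of 0.95 (SE 0.525, adjusted p = 1) in heterozygous against wild type, and the part of muscle in it was not tested.

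Genes of fetal and newborn growth, an outside mark of stage, had means from 0.49 CPM (Lin28b) to 4540 CPM (H19). Igf2 averaged 2690 CPM (1960 to 3270) and H19 lay between 3090 and 6060 CPM. Of 10 genes, 9 were tested, all 9 were higher in homozygous and in heterozygous than in wild type libraries, and 0 were called after adjustment. Beside them, all 7 mature olfactory neuron genes were lower in homozygous and in heterozygous libraries, with median log2 fold changes of -0.307 and -0.168 and none at an unadjusted p under 0.05. The medians over all tested genes were 0.0155 and 0.00185. All 7 muscle genes were higher, with medians of 3.68 and 4.58, 5 and 7 of them at an unadjusted p under 0.05 and 0 after adjustment. The shares over all tested genes at this threshold were 3.02% and 2.24%, which moved with single libraries as given above. The part of neuron and muscle RNA in the growth genes was not tested. Genotype and Xist class overlapped, since every wild type library had Xist, and their parts were not separated. Each of these neuron genes averaged higher, and each muscle gene lower, in the libraries with Xist than in those without. Gnal averaged 429 and 326 CPM, and Acta1 11.8 and 168 CPM. Dlk1, a growth gene of immature cells, had log2 fold changes of 0.97 (SE 0.37, unadjusted p = 0.0227) and 1.03 (SE 0.371, unadjusted p = 0.0169), with adjusted p of 0.996 and 1. Lin28b, a factor of fetal blood formation, had 64 counts in all.

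Alas2 was set against 9 other measures over the 11 libraries, on the log2(CPM + 0.5) scale for genes and sums, in place of the adult globin sum. With Slc4a1, the other red cell gene, Pearson's r was 0.428 (permutation p = 0.186) and Spearman's rho 0.573 (permutation p = 0.0701), and r was 0.483 without the 2 libraries farthest from the median of Slc4a1. With the embryonic globin sum r was -0.466 (permutation p = 0.149) and fell in size to -0.152 without the 2 farthest libraries. With total counts r was -0.418 (rho -0.573), with the endothelial sum 0.4, with the macrophage sum 0.308 and with the neutrophil sum 0.216. With the first principal component over the 1000 most variable genes, not the one that set the library sets, r was -0.268, with the mature olfactory neuron sum -0.0788 and with the muscle sum 0.0922. Without the 2 farthest libraries, chosen for each measure, r was nearer 0 with the macrophage sum (0.00475) and the neutrophil sum (0.0808). It was farther from 0 with total counts (-0.459), the endothelial sum (0.548), the component over 1000 genes (-0.521), the mature olfactory neuron sum (-0.408) and the muscle sum (0.439). After adjustment over the 9 relations the lowest p was 0.491 for r and 0.317 for rho, so none passed. Within the set of 6 libraries r with Slc4a1 was 0.612, with the macrophage sum 0.684, with the neutrophil sum -0.212 and with total counts 0.12, and the set of 5 is too small for a value.

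The tested genes outside all lists whose log2 CPM followed Alas2 most closely over the 11 libraries, among 15763 with a mean above 1 CPM, were Ccl6, a chemokine gene (r = 0.877), H2-Ob (0.869), Zfp87 (0.859), Mpzl2 (0.856) and Rpia (0.854). For Slc4a1 they were Gnaq (0.961), Zfp931 (0.958), Pigw (0.953), Ccser2 (0.948) and Brwd3 (0.945). These are the highest of many values over 11 shared libraries and are given as a description.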

How the data were processed

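Whole MOE RNA (RNeasy kit with DNase) was made into NEBNext Ultra Directional libraries after polyA selection. The submitters' processing notes name Trimmomatic 0.36, HISAT2 2.1.0, featureCounts of Subread 1.6.2 and DESeq2 1.20.0, with mm10 (GRCm38). The annotation, strand setting and treatment of multi-mapped reads are not given in the sources used here. The authors deposited raw counts per gene, used here, and a normalised table, not used.

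Counts were tested with edgeR 4.0.16 (limma 3.58.1, R 4.3.3): filterByExpr by genotype, TMM scaling, quasi-likelihood test over 16574 genes in all 11 libraries, Benjamini-Hochberg adjustment, threshold 0.05. The fit was tested on simulated data with 200 changed genes, as many 2-fold as 4-fold. In homozygous against wild type it called 40 of the 2-fold and 91 of the 4-fold ones, and 9 other genes. CPM are counts over TMM-scaled library sizes, except sums over libraries of the globins, which are over total counts. DESeq2 1.42.0, RLE scaling, no filter, left-out libraries and covariates were alternatives. Libraries held 9239866 to 14632525 counts, and 3 counts equal 0.204 to 0.327 CPM. Shares were compared by exact permutation, and correlations by 100000 permutations (SciPy).

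All 9 members were reported. Of 6 erythroid and heme lists the text names the 4 highest genes and any with an unadjusted p under 0.05. Genes most like Alas2 replaced those most like the adult globin sum, which was 0. The members and lists were chosen with earlier results of these data known. Libraries were grouped by the labels, which number them within a genotype. Deviations from genotype means of same-numbered wild type and homozygous libraries correlated at 0.317 to 0.405 in all 3 pairs, while those with heterozygous libraries reached -0.575. The number was run as a block for wild type and homozygous libraries, an alternative chosen after seeing the data. Differently numbered libraries correlated as highly, at 0.458 for wild type replicate 3 with homozygous replicate 4. Of the 11 libraries, 0 were closest to one of their own number, so the pairing is not established. No pair of libraries agreed within sampling noise (lowest chi-square per degree of freedom 9.22). The library sets were split at the largest gap of the first principal component over all tested genes outside the erythroid lists. The rule set first used 1000 variable genes and put heterozygous replicate 4 alone. Some genes of the lists are counted but not reported here by name.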

Additional observations from a re-analysis of the deposited data

Results flagged for a closer look

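Within groups of 4 libraries, the gap of the highest or lowest library to its neighbour was compared with the group's range for 9 measures. Of 18 groups, 2 were marked. Chance marks about 1 in 20 groups, a rate that does not hold for counts near 0. Hbb-y stood apart in heterozygous replicate 1, at 0.06793 CPM against 0 in the other 3 heterozygous libraries. This is a single count, for which the gap equals the range whatever the gene. Rn45s stood apart in homozygous replicate 2, at 25.8% of counts against 0.1258% to 0.7861% in the other homozygous libraries. With library sizes computed without Rn45s, Alas2 in homozygous against wild type had a log2 fold change of 0.49.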

How the results depend on the processing

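The number of called genes was 0 in all 3 comparisons under every edgeR alternative, left-out libraries included (0 to 0), other than the paired block named next. DESeq2 called 8 genes in homozygous and 3 in heterozygous libraries against the wild type, and 2 between homozygous and heterozygous libraries. The replicate block called 0 genes in each comparison over all libraries and 31 in homozygous against wild type with only the paired libraries of those genotypes, and 0 members in both. No library set as a covariate changed these counts, the set by the first rule being the same as setting heterozygous replicate 4 apart. The cause of the differences was not tested. Alas2 kept its sign in homozygous against wild type under all 18 alternatives (0.34 to 0.80 on the log2 scale, lowest adjusted p 0.705), and in heterozygous against wild type it ranged from -0.0045, without wild type replicate 2, to 0.38 over the left-out libraries. Slc4a1 turned positive in homozygous against wild type under the replicate block (0.072, and 0.24 with only the paired libraries), with the Xist class as a covariate (0.62), without wild type replicate 1 (0.017) and without homozygous replicate 3 (0.027) or 4 (0.26), with values from -0.41 to 0.26 over all left-out libraries. No relation of Alas2 passed with RLE scaling, and without the 2 farthest libraries r was given with no test. For the share of Alas2, comparisons with the wild type cannot reach 0.05 at these sizes. The planned tests of the adult globin sum, share, ratio and relations gave no value, since these rows were listed at 0. Depth limits Slc4a1 to 3 to 21 counts and leaves the embryonic globins untested.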
